A study of Mus musculus with 2 samples.

Results

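The genes of oxidative phosphorylation described here are the 113 genes, of 33696 in the deposited matrix, whose symbols name subunits of the respiratory complexes or of ATP synthase, or assembly factors that carry the same symbol roots. They were chosen by symbol alone: 13 are encoded in the mitochondrial genome (symbols starting mt-) and 100 in the nucleus, and pseudogene symbols were left out. Of the nuclear genes, 87 stood at 20 CPM (counts-per-million of all UMIs) or more over all cells used, 13 stood below that level, and 1 of these, Cox8b, had no count. The study described single cells of the mouse line Delmix in 2 samples, untreated epiblast stem cells and embryoid bodies grown from that line and taken on day 2, with 1 sample per group. Epiblast stem cells resemble the epiblast of the implanted embryo, and embryoid bodies are floating aggregates in which they start to differentiate. The counts form 1 pooled matrix whose cell tags match neither sample, so no value below belongs to either of them and the 2 groups were not compared. The whole library was treated as 1 sample, without tests between its clusters of cells.

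Oxidative phosphorylation passes electrons from complexes I and II through complex III to complex IV, and the proton gradient that complexes I, III and IV build up drives ATP synthase, complex V. Complex II is made from nuclear genes alone, whereas the other complexes combine nuclear subunits, which are made in the cytosol and imported, with subunits translated inside the mitochondrion. Primed pluripotent cells are known for a strong use of glycolysis beside a reduced use of respiration, and naive cells for the use of both routes.

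The promoters of 82 of the 100 nuclear genes were found in RefSeq (mouse build GRCm38.p6), and 6 of them are printed because they belong to isoforms or to an assembly factor whose levels differed between clusters. Each runs 5′ to 3′ on the strand of its gene, from 250 bases before the annotated start to the first 30 transcribed bases. Capitals mark matches to the letters searched for NRF1 (GCGCA, then any base, then GCGC), YY1 (AAGATGGC) and ETS factors such as GABPA (CCGGAAG), on either strand.
Cox6b1, chr7:30626085-30626364, minus strand: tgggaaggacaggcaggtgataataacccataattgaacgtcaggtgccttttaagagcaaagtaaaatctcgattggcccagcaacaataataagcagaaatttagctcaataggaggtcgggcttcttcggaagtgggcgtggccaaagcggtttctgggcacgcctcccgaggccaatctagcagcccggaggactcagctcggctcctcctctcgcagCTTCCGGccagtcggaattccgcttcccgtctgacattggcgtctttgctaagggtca
Cox6b2, chr7:4753065-4753344, minus strand: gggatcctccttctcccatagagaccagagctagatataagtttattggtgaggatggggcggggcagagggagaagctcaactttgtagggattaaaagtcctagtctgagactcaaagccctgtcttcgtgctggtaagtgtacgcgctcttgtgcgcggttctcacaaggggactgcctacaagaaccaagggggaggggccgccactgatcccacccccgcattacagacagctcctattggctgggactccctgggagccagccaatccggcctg
Atp5g1, chr11:96075602-96075881, minus strand: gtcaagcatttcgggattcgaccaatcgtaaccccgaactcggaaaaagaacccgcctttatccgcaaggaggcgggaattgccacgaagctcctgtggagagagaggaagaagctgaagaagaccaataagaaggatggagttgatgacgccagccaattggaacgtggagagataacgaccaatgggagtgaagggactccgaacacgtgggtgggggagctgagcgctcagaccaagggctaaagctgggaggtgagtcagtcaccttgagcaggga
Atp5g2, chr15:102671018-102671297, minus strand: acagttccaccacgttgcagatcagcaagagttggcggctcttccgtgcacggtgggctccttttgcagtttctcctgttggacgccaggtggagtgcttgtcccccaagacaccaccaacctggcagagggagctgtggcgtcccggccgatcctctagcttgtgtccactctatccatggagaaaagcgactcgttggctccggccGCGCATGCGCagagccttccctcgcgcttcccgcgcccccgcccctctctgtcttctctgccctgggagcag
Atp5g3, chr2:73911297-73911576, minus strand: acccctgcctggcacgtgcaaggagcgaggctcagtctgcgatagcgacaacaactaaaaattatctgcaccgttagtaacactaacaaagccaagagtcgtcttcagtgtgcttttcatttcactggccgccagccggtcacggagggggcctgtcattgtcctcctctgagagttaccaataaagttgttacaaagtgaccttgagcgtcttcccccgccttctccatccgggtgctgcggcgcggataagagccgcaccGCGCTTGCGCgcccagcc
Sdhaf3, chr6:6955768-6956047, plus strand: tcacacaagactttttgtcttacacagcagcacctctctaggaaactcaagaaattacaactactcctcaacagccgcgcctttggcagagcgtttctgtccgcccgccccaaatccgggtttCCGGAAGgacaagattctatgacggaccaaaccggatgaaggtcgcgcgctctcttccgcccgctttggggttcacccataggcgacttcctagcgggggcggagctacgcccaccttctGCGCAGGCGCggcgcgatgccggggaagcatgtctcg
Within the isoform families the matches differed: Cox6b1 held the ETS letters on the opposite strand at −28, counted with the annotated start as 0, and Cox6b2 held none of the 3. Atp5g2 held the NRF1 letters at −42 and Atp5g3 at 12, whereas Atp5g1 held none. Sdhaf3 held the ETS letters at −127 and the NRF1 letters at −7.

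Over windows of 250 bases before to 50 after the start, 46 of the 82 nuclear genes (56.1%) held at least 1 of the 3 motifs, against 16.4% of 27025 genes with a promoter of the same length. NRF1, a transcription factor named for its role in respiratory gene expression, had a match in 21 genes (25.6%, exact binomial interval 16.6 to 36.4%), against 5.19% of all genes. The ETS letters were found in 22 (26.8%) against 9.93%, and the YY1 letters in 11 (13.4%) against 3.19%. TATAAA was found in 9 (11%) against 15.7%. The median match began at −36 for NRF1, at −17 for ETS and at 23 for YY1. The NRF1 letters nearly mirror themselves, so a match often reads on both strands and each gene was counted once, and the ETS and YY1 letters can overlap by AAG. The background held genes whether or not these cells expressed them, while 74 of the 82 stood at 20 CPM or more. Of the 8 below that level, 1 held the NRF1 letters, 1 the ETS letters and 0 the YY1 letters. Other expressed genes were not set apart, so whether the difference is particular to OXPHOS genes was not tested. A match describes letters, and binding was not measured.

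The filter on called cells asked for 1000 or more genes and for no more than 10% of mitochondrial UMIs, and 16841 of 21593 passed it, with a median of 6473 unique molecular identifiers (UMIs, counted once per captured molecule) and 121114764 UMIs in all. They fell into 13 clusters, found without the OXPHOS genes and all mt- genes among the variable genes, of which 11 held at least 100 cells. From their markers, cluster 1 (4447 cells) was naive pluripotency-like, cluster 6 (1091) epithelial-like, cluster 7 (703) primitive streak and mesoderm-like, cluster 8 (601) fibroblast or feeder-like and cluster 11 (189) 2-cell-like. Clusters 2, 3, 4, 5, 9 and 10 are named by leading genes, Anks1b and Ptprt, Mt1 and Car4, Hs6st2 and Fgf5, Meis2 and Fgf8, Bnc2 and Klf12, and Rhox9 and Rhox6. In cluster 4, 4 of 15 primed epiblast markers were 2-fold higher or more, and no cluster was given that name. Of the kept cells, 2145 (12.7%) were called doublets and left in.

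Levels are CPM of summed UMIs with exact Poisson 95% intervals, which cover counting error only. UMIs were counted at the 3′ end and not divided by gene length, so a comparison of levels between genes is one of UMIs. The 100 nuclear genes summed to 22025 CPM (21999 to 22051) and the 13 mitochondrial genes to 32947 CPM (32914 to 32979), a ratio of 1.5 mitochondrial UMIs per nuclear UMI. A kept cell held on average 158.4 nuclear and 236.9 mitochondrial UMIs, and none was without a nuclear OXPHOS UMI. The mitochondrial share is bounded by the filter of at most 10%, so its level is that of cells below this maximum.

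**Figure D1:**
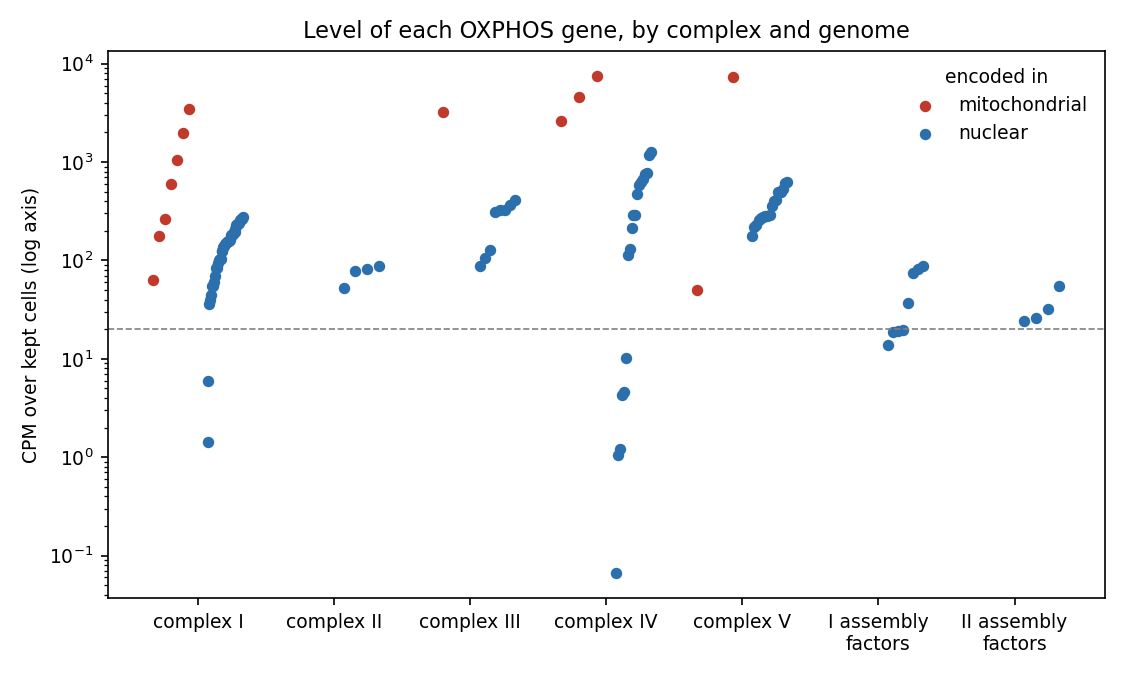
Level of each OXPHOS gene over kept cells in CPM (log axis) by complex, with genes encoded in the mitochondrial genome in red and nuclear genes in blue; the dashed line marks 20 CPM, and Cox8b, at 0, is not drawn. Nuclear subunits of complexes III, IV and V reach higher levels than those of complexes I and II, and 2 mitochondrial genes, mt-Co3 at 7560 and mt-Atp6 at 7295 CPM, lead all others.

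Complex I, the entry point for electrons from NADH, had 39 nuclear genes that summed to 5544 CPM and 7 mitochondrial genes that summed to 7575 CPM. At the top of its nuclear genes, Ndufb1 stood at 276 CPM (273 to 279) and Ndufab1, which is also the mitochondrial acyl carrier protein, at 266 CPM. At the lower end of those with at least 20 CPM, Ndufs8, a core subunit that holds iron-sulfur clusters, stood at 36.1 CPM (35.1 to 37.2) and Ndufb4 at 39.5 CPM. Further core subunits lay in the lower part of this range, with Ndufv2 at 94.7, Ndufs7 at 83.5, Ndufs3 at 60.8, Ndufv1 at 55.5 and Ndufs1 at 55.5 CPM. The core subunits named here all stood below the median of the nuclear complex I genes, 148 CPM. Only Ndufb11b and Ndufb4b, with names of gene copies, were under 20 CPM, at 5.93 and 1.41 CPM, and their reads may be split with Ndufb11 and Ndufb4.

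The mitochondrial subunits of complex I differed widely among themselves. mt-Nd1 stood at 3443 CPM, mt-Nd4 at 1994, mt-Nd2 at 1040, mt-Nd3 at 593, mt-Nd5 at 265, mt-Nd4l at 176 and mt-Nd6 at 63.7 CPM (62.2 to 65.1). mt-Nd6 is the only protein gene on the light strand of the mitochondrial genome. mt-Nd4l and mt-Nd4 share 1 transcript and overlap, as do mt-Atp8 and mt-Atp6, so the split of UMIs within each pair depends on how the authors' counting assigned reads in the overlap.

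Complex II, succinate dehydrogenase, had the lowest sum of the complexes, 301 CPM over 4 genes. Sdhd, a membrane anchor, stood at 88.4 CPM, Sdha, the flavoprotein, at 81.9, Sdhc, the other anchor, at 78.3 and Sdhb, the iron-sulfur subunit, at 52.4 CPM. Complex III summed to 2065 CPM over 8 nuclear genes, led by the small subunits Uqcr10 at 413 CPM and Uqcrq at 370 CPM. This sum leaves out Cyc1, the cytochrome c1 of complex III, whose symbol lies outside the rule. The large core subunits Uqcrc2 and Uqcrc1 were the lowest of the 8, at 107 and 88.4 CPM. The mitochondrial subunit of complex III, cytochrome b (mt-Cytb), stood at 3255 CPM.

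Complex IV, cytochrome c oxidase, had the highest sums on both sides: 7392 CPM over 20 nuclear genes and 14771 CPM over 3 mitochondrial genes. Cox7c (ENSMUSG00000017778) stood at 1272 CPM (1266 to 1278) and Ndufa4 (ENSMUSG00000029632), named for complex I but a subunit of complex IV, at 1176 CPM (1170 to 1182). They were the highest of all 100 nuclear genes. The mitochondrial core subunits mt-Co3 (ENSMUSG00000064358), mt-Co2 and mt-Co1 stood at 7560, 4590 and 2621 CPM. Of the nuclear genes of complex IV, 13 reached 20 CPM, and the 7 that did not are isoforms known from muscle, testis, lung or other tissues.

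Complex V summed to 6234 CPM over 17 nuclear genes, all above 20 CPM. Atp5l, a subunit of the membrane part, stood at 625 CPM (621 to 629) and Atp5b, the catalytic beta subunit, at 619 CPM (614 to 623), so their intervals overlapped. Atp5d, the delta subunit, was the lowest at 177 CPM, and Atp5o, which joins the stalk to the head, stood at 220 CPM. Of its mitochondrial subunits, mt-Atp6 (ENSMUSG00000064357) stood at 7295 CPM and mt-Atp8 at 50.4 CPM. The mitochondrial to nuclear ratio of UMIs was highest for complex IV, 2.00, then 1.58 for complex III, 1.37 for complex I and 1.18 for complex V. These ratios cover the genes of the symbol rule only, so that of complex III is without Cyc1.

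Assembly factors had lower sums than the subunits of their complexes, although the highest of them lay within the range of single subunits. The 8 Ndufaf genes, which help to build complex I, summed to 352 CPM, with Ndufaf2 at 87.5 and Ndufaf4 at 81.6 CPM at the top. Ndufaf8 stood at 74.4 and Ndufaf6 at 37.2 CPM, and the remaining 4 were under 20 CPM. The 4 Sdhaf genes, which mature complex II, summed to 136 CPM: Sdhaf4 stood at 54.6, Sdhaf2 at 31.7, Sdhaf3 at 26.1 and Sdhaf1 at 24.0 CPM.

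Leaving out cluster 9, the summed nuclear level differed little between the clusters of at least 100 cells, from 20050 CPM (19984 to 20116) in cluster 4, led by Hs6st2 and Fgf5, to 24497 CPM (24416 to 24578) in cluster 3, led by Mt1 and Car4. This is a ratio of 1.22. The mitochondrial sum varied more, by 1.46-fold, from 24028 CPM (23892 to 24165) in cluster 8, the fibroblast or feeder-like cells, to 35072 CPM (34984 to 35159) in cluster 2. Cluster 4, which had the lowest nuclear sum of these 10, had the second highest mitochondrial sum at 34975 CPM. The mitochondrial to nuclear ratio therefore ran from 1.16 in cluster 8 and 1.21 in cluster 3 up to 1.74 in cluster 4. It was 1.48 in the naive pluripotency-like cells, 1.60 in the 2-cell-like cells, and 1.41 and 1.39 in the streak and mesoderm-like and the epithelial-like cells. The mitochondrial sum of the 2-cell-like cells was 34938 CPM (34632 to 35246), an interval that overlaps those of clusters 2 and 4. Without called doublets these cells had the highest mitochondrial sum, 36252 CPM. Cluster 2 then stood at 34723 and cluster 4 at 34222 CPM, so the order of the highest sums depends on doublets.

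Taken by complex, cluster 4 had the highest ratio of these 10 clusters for complexes I (1.67), IV (2.33) and V (1.36), and the 2-cell-like cells had it for complex III (1.74), where cluster 4 stood at 1.73. The lowest ratio was that of cluster 8 for complexes I (0.893) and V (0.911), and that of cluster 3 for complexes III (1.27) and IV (1.56). With each cell thinned to 2000 UMIs, the median number of nuclear OXPHOS genes with a UMI was 28 in cluster 4 and 32 in cluster 3. The ratio of nuclear OXPHOS to cytosolic ribosomal protein UMIs ranged from 0.097 in cluster 10 to 0.119 in cluster 8.

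**Figure D2:**
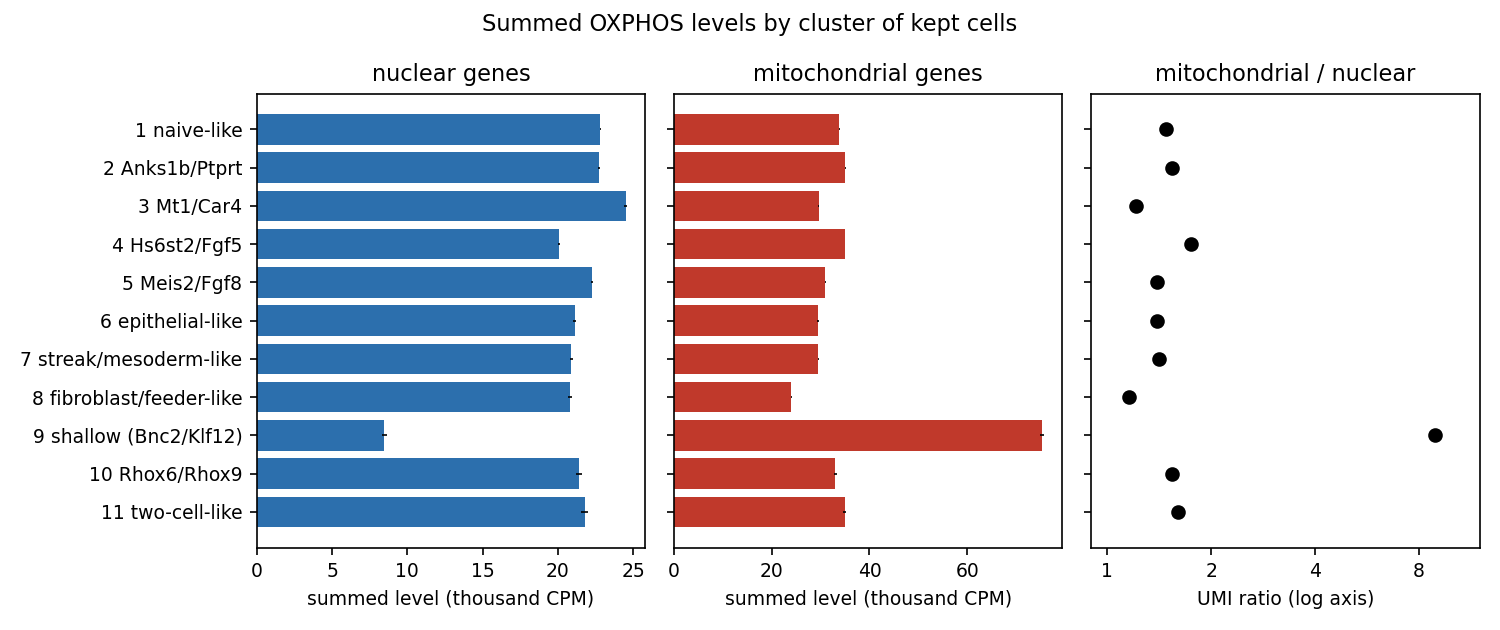
Summed nuclear (blue) and mitochondrial (red) OXPHOS levels in units of 1000 CPM and the ratio of their UMIs (log axis), for the 11 clusters of at least 100 cells; bars start at 0 and error bars are exact Poisson 95% intervals. Cluster 9 stands apart with 8478 nuclear and 75286 mitochondrial CPM, a ratio of 8.88, while the other clusters lie between 1.16 and 1.74.

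Single genes were compared between a cluster and all other kept cells, and a gene was called higher or lower at a 1.5-fold difference (after adding 1 CPM to both sides) with at least 20 CPM on the higher side. No nuclear OXPHOS gene was called in the naive pluripotency-like cells, where 5.46% of all genes tested were higher and 11.8% lower. The same count of 0 was found in cluster 2 (3.25% higher and 2.68% lower), cluster 3 (0.543% and 12.2%), cluster 4 (2.28% and 3.73%) and the epithelial-like cells (5.71% and 4.28%). The median log2 ratio over the nuclear genes tested was 0.03 in the naive pluripotency-like cells, 0.14 in cluster 3 and −0.16 in cluster 4, beside −0.06, −0.12 and 0.07 over all genes. In cluster 3 mt-Nd6 was the only mitochondrial gene called, at 42.0 CPM, and all 13 had a median log2 ratio of −0.22. Without doublets Cox6b2 was called higher in cluster 2.

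Cox7b and Cox6b2 were lower in both cluster 5 and the streak and mesoderm-like cells, and no other nuclear OXPHOS gene was called there, except Ndufa1, lower in cluster 7 once doublets were left out. The background was 8.64% of genes lower in cluster 5 and 10.6% in cluster 7, and 7.77% and 12.2% higher. Cox7b (ENSMUSG00000031231), a small subunit of complex IV encoded on the X chromosome, stood at 381 CPM in cluster 5, 389 in cluster 7 and 301 in cluster 8. In the naive pluripotency-like cells it stood at 705 CPM, in cluster 3 at 701, in cluster 10 at 695 and in the 2-cell-like cells at 685 CPM. Clusters 2, 4 and 6 stood at 597, 565 and 547 CPM, so clusters 5, 7 and 8 lay below all others but cluster 9, at 237 CPM. Cox6b2, an isoform described further below, stood at 77.5 CPM in cluster 5 and 59.3 CPM in cluster 7.

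The fibroblast or feeder-like cells differed most in the mitochondrial genes among the clusters other than 9. There 7 of the 13 were lower, namely mt-Nd1, mt-Nd2, mt-Nd4l, mt-Nd5, mt-Nd6, mt-Co3 and mt-Atp8, and none higher, while 28.1% of all genes tested were lower and 24.9% higher. mt-Atp8 stood at 22.8 CPM and at 51.6 CPM outside the cluster, mt-Nd5 at 153 against 270 CPM and mt-Nd1 at 2315 against 3491 CPM. mt-Cytb was nearer to the others, at 2913 CPM, and made up 12.1% of mitochondrial OXPHOS UMIs here (11.9 to 12.3%) against 9.88% over kept cells. Of the nuclear genes, Ndufa13, at 249 CPM, and Ndufa3, at 111 CPM, both accessory subunits of complex I, were higher. Cox7c (812 CPM), Cox7b and the X-linked Ndufa1 (151 CPM) were lower. The list of fibroblast and feeder markers summed to 8433 CPM in this cluster and 21 CPM elsewhere, and 23.1% of its cells were called doublets. Without doublets its nuclear calls were 3 higher and 10 lower and its mitochondrial calls 10 lower, so the count of calls here depends on them.

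Cluster 10, led by Rhox9 and Rhox6, showed Sdhaf4 at 93.5 CPM, compared with 53.9 elsewhere, and Cox7a1 at 21.1 CPM, compared with 9.93 elsewhere, and both were called higher. Sdhaf1 (15 CPM) and Sdhaf2 (19.3 CPM) were called lower, each at a level below 20 CPM in this cluster. The calls here were 2 higher and 2 lower of 90 nuclear OXPHOS genes tested, while 9.28% of all genes were higher and 13.9% lower. In the 2-cell-like cells, with 12.3% of genes higher and 19.9% lower, Sdhaf3 (ENSMUSG00000042505) was the only nuclear call. Its level was 79.9 CPM, beside 25.5 CPM in all remaining kept cells, and at 17.7 to 38.1 CPM in each of the other clusters of at least 100 cells. Thinned to 2000 UMIs, 16.7% of 2-cell-like cells had a UMI of Sdhaf3 (11.6 to 22.8%, exact binomial), while the other 10 clusters ran from 3.71% in cluster 8 to 7.19% in cluster 10. Before thinning the shares were 33.3% of 2-cell-like cells, 13.8% in cluster 8 and 14.9% in cluster 10, at median depths of 5980, 6943 and 6045.5 UMIs. Ndufb11b, the copy of Ndufb11, reached 18.2 CPM in the 2-cell-like cells and 13.5 CPM in the naive pluripotency-like cells and stood between 1.01 and 4.48 CPM in the other 9, without reaching the 20 CPM needed for a call. Without doublets the calls in the 2-cell-like cells were 3 higher (Sdhaf3, Cox6b2 and Ndufb11b) and 4 lower (Ndufs3, Ndufaf6, Sdhb and Sdhaf2), so this count depends on them as well.

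**Figure D3:**
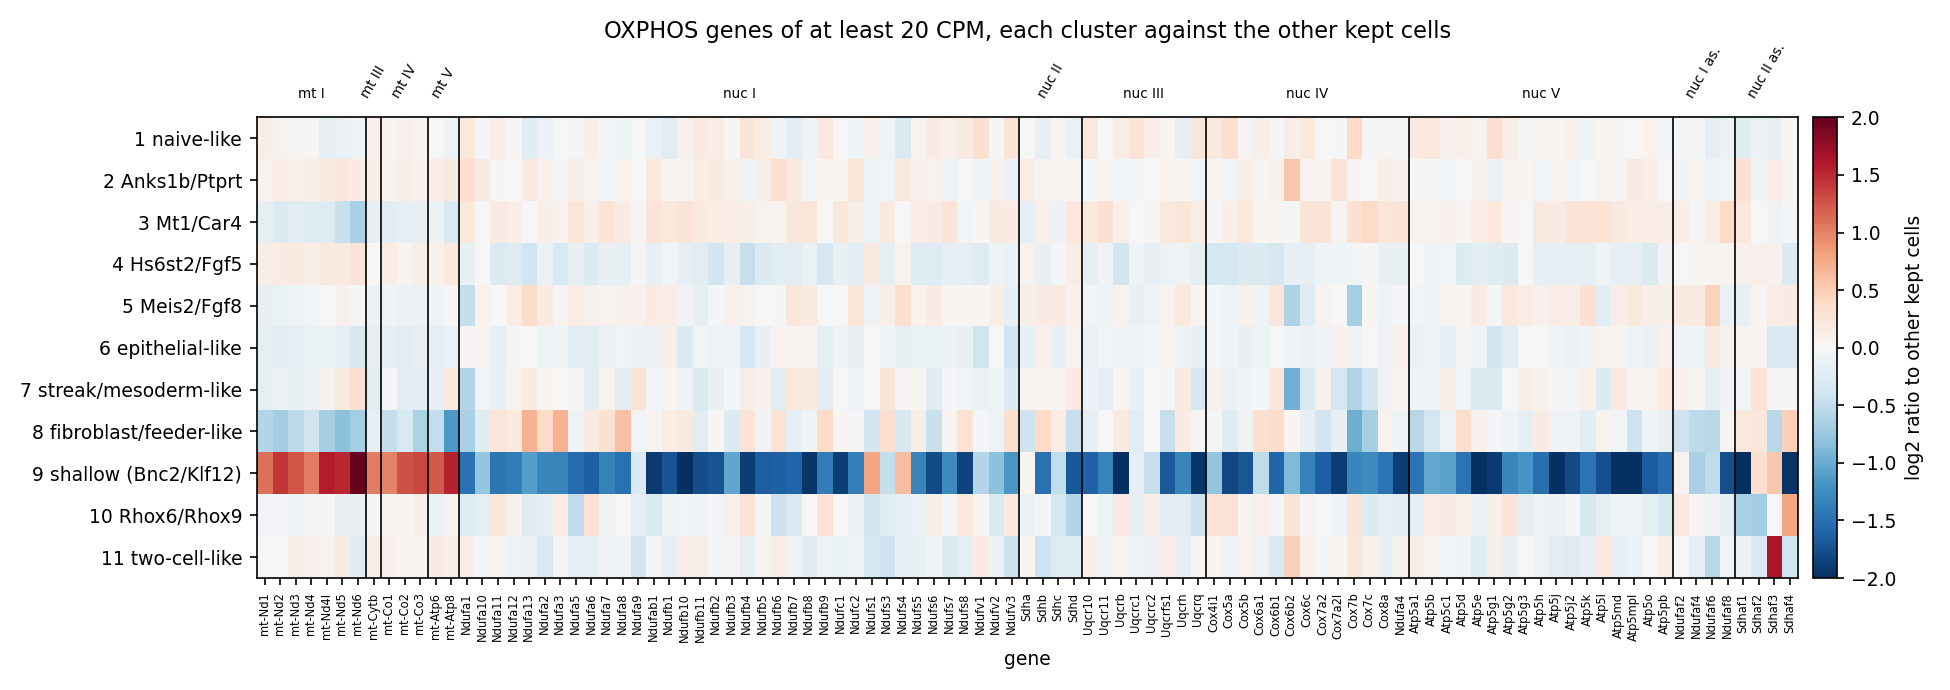
Log2 ratio of OXPHOS genes with at least 20 CPM (columns, grouped by genome and complex, 1 gene not drawn) in each cluster of at least 100 cells (rows) to all other kept cells, with red for higher and blue for lower and colours limited to 2 log2 units either way. Cluster 9 shows mitochondrial genes higher and most nuclear genes lower, and in the remaining rows few columns stand out, among them Cox6b2, Cox7b, Sdhaf3 and Sdhaf4.

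Cluster 9, 509 cells led by Bnc2 and Klf12, held low nuclear and high mitochondrial OXPHOS levels. Its nuclear sum was 8478 CPM (8331 to 8627) and its mitochondrial sum 75286 CPM (74847 to 75727), a ratio of 8.88. Of the nuclear genes 74 were lower and 3 higher, with a median log2 ratio of −1.47, against 25.5% lower and 47.7% higher of all genes tested, whose median was 0.51. All 13 mitochondrial genes were higher, by a median log2 ratio of 1.28. On a total without mt- genes, so that the mitochondrial share cannot lower the nuclear level, the counts were 73 lower and 5 higher, against 24% lower and 49.8% higher of all genes. A cell of this cluster held 24.9 nuclear and 221 mitochondrial OXPHOS UMIs on average, against 136 to 173 nuclear and 179 to 281 mitochondrial UMIs in the other 10 clusters. Its mitochondrial UMIs per cell thus lay within their range and its nuclear UMIs below it.

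These cells had a median of 2724 UMIs and 8.09% mitochondrial UMIs, close to the maximum of the filter, and 0.196% were called doublets. Their level of nuclear-retained and stress RNA, a list led by Malat1, summed to 25194 CPM against 9268 CPM in the other cells. Of 8 genes tested in this list, 5 were higher, namely Malat1, Neat1, Meg3, Xist and Kcnq1ot1. The stress genes Atf4 and Jun were lower and no stress gene was called higher, and the median log2 ratio over the 14 genes was −0.18. Cytosolic ribosomal proteins were lower for 80 of 83, mitochondrial ribosomal proteins for 70 of 78 and mitochondrial import proteins and channels for 16 of 17. Droplets without a called cell, of 150 to 300 UMIs, held 5.45 nuclear OXPHOS UMIs on average, beside 24.9 per cell of this cluster. The part of RNA quality, depth and free RNA in the low nuclear OXPHOS level was not tested.

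Within cluster 9 the nuclear genes differed among themselves. The 6 lowest log2 ratios to the other cells, among nuclear genes that could be called, were those of Ndufb10 at 22.1 CPM (log2 ratio −2.20), Atp5j at 62.2 (−2.12), Atp5e at 118 (−2.08), Uqcrb at 74.2 (−2.07), Atp5md at 67.5 (−2.06) and Atp5mpl at 84.9 CPM (−2.06). These are subunits of complexes I, III and V, and next came the assembly factors Sdhaf1 at 5.35 CPM (−1.99) and Sdhaf4 at 13.4 CPM. The cluster held 1495531 UMIs in all, so the lowest of these levels rest on few UMIs, and the order of these genes was not tested. Sdha, Uqcrc1 and Ndufaf2 stood near the other cells, at 84.3, 78.9 and 92.3 CPM. Ndufs1, the largest core subunit of complex I, stood at 95.6 against 55.0 CPM (log2 ratio 0.79), Ndufs4 at 191 against 124 CPM (0.61) and Ndufaf5 at 30.8 against 13.6 CPM (1.12), and these 3 were called higher.

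The position of a nuclear gene in this range went with the length of its gene in the annotation (GENCODE M21). The median log2 ratio was −1.60 for 59 genes under 10 kb, −1.11 for 24 genes of 10 to 30 kb and 0.57 for 6 genes of 30 kb or more. Spearman's rho across the 89 genes tested was 0.44, and across 7948 nuclear genes it was 0.77. It is a description across genes that share 1 library and are not independent. Of all genes under 10 kb the median was −1.25, and of those of 30 kb or more 1.14, so the OXPHOS genes stood lower than all genes in each of the 3 length classes.

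In 5 isoform families nearly all UMIs came from the widely expressed member. Cox4i1 made up 99.8% of its family, Cox6a1 99.9%, Cox7b 99.3%, Cox8a 99.8% and Ndufa4 99.6% of UMIs. Cox6a2, known from heart and muscle, had 8 UMIs, Cox8b, known from muscle, had 0 UMIs, where 3 would be 0.0248 CPM, and Cox8c, known from testis, stood at 1.05 CPM. Ndufa4l2 stood at 4.61 CPM and Cox7b2 at 4.33 CPM. Cox7a1, the heart and muscle isoform, took 1.45% of Cox7a UMIs beside Cox7a2 with 68.4% and Cox7a2l with 30.2%, and 3.03% in cluster 10 (2.22 to 4.03%). In cell-free droplets Cox7a1 stood at 14.1 CPM and Ndufa4l2 at 7.94 CPM, above their levels in cells.

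Cox4i2, known from lung and from low-oxygen responses, was low throughout but differed between clusters. It took 0.190% of Cox4i UMIs over kept cells and 1.28% in the streak and mesoderm-like cells (0.920 to 1.73%), on 41 UMIs or 8.58 CPM. In the other clusters of at least 100 cells it stood at 0 to 2.42 CPM, and in cell-free droplets at 1.02 CPM. Thinned to 2000 UMIs, 1.60% of streak and mesoderm-like cells had a UMI (0.801 to 2.84%), beside 1.01% in cluster 8 (0.372 to 2.19%), whose interval overlaps, and 0.0907% of the naive pluripotency-like cells (0.0247 to 0.232%). Before thinning the shares were 4.98%, 1.83% and 0.382%, at median depths of 5803, 6943 and 6824 UMIs.

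In the Cox6b family the lesser isoform also took a sizeable share. Cox6b1 (ENSMUSG00000036751) stood at 287 CPM and Cox6b2 (ENSMUSG00000051811), known as the testis isoform, at 114 CPM, or 28.4% of the family (28.0 to 28.8%). Its share was lowest in the streak and mesoderm-like cells at 15% (13.4 to 16.7%) and in cluster 5 at 19% (18 to 20.1%). It was highest in the 2-cell-like cells at 40.5% (36.4 to 44.7%), followed by cluster 9 at 39.3% (33.0 to 45.9%), cluster 2 at 34.4% (33.3 to 35.4%) and cluster 10 at 32.4% (29.3 to 35.5%), and the first 2 of these intervals overlapped. The low shares came with Cox6b2 levels of 59.3 and 77.5 CPM while Cox6b1 stood at 336 and 330 CPM. The promoters printed above differ in the same pair, with the ETS letters in Cox6b1 only, and a link of these letters to the shares was not tested. In cell-free droplets the share was 26.8%.

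The 3 genes for the c subunit of ATP synthase, whose mature proteins are identical, were all well expressed. Atp5g2 took 41.4%, Atp5g3 34.4% and Atp5g1 24.3% of their UMIs. Atp5g1 ranged from 20.3% in the streak and mesoderm-like cells (19.3 to 21.4%) to 27.0% in the 2-cell-like (24.8 to 29.2%) and 26.8% in the naive pluripotency-like cells (26.4 to 27.2%), leaving aside cluster 9 with 16.8%. Atp5g2 was highest in cluster 10 at 46.6% (44.7 to 48.5%), where Atp5g3 had its lowest share of 28.5%.

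Nuclear OXPHOS levels were then followed across called cells of 1000 or more genes, binned by their mitochondrial share, as CPM on a total without mt- genes. Of 4308 called cells above 10% mitochondrial UMIs, 1407 had that many genes, and the others are in no bin. They were 23066 (22971 to 23161) in cells of 0 to 2%, 23372 in those of 2 to 3%, 22879 at 3 to 4%, 22235 at 4 to 6% and 17540 (17420 to 17660) at 6 to 10%. In called cells above the maximum, which were not kept, they were 12750 in 1304 cells of 10 to 20% and 13387 in 103 cells of 20 to 40%. The level was thus nearly flat up to 6% and lower above. The median depth was 6322 UMIs in the lowest and 3193 in the highest bin of kept cells, and 1849 UMIs at 20 to 40%. Mitochondrial UMIs per cell were 111 at 0 to 2%, 302 at 6 to 10% and 304 at 10 to 20%, while nuclear OXPHOS UMIs per cell were 166, 64.7 and 25.6.

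**Figure D4:**
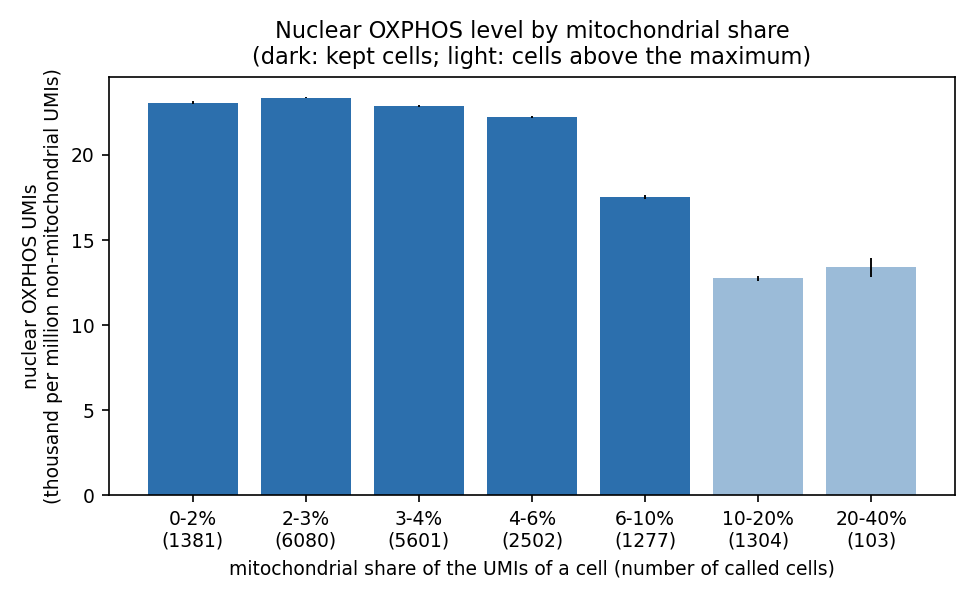
Nuclear OXPHOS CPM on a total without mt- genes (axis in units of 1000), by the mitochondrial share of a called cell with 1000 or more genes. The number of such cells stands under each bar, and error bars are exact Poisson 95% intervals. Bars of kept cells are dark and those above the maximum light; the level is lower above 6%, going from 22235 CPM at 4 to 6% to 17540 at 6 to 10% and 12750 at 10 to 20%.

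Between 6 to 10% and 0 to 2%, 16 nuclear OXPHOS genes were lower and none higher, against 10.7% lower and 37.7% higher of all genes. Atp5e stood at 334 against 533 CPM and Uqcrq at 254 against 402 CPM, whereas Ndufs1 stood at 67.7 against 54.2 CPM. All 5 complexes had a lower sum in the upper bin. The ratio of the 2 bins was 0.760 over all kept cells, 0.875 without cluster 9, 0.906 within the naive pluripotency-like cells, 0.812 within cluster 2 and 0.909 within cluster 3. Thinned to 2000 UMIs it was 0.705. Malat1, a nuclear RNA, moved the other way, from 7887 to 12723 CPM in these bins and to 18673 at 10 to 20%, and its part in the result was not tested. In cells of 20 to 40% against all kept cells, 56 nuclear genes were lower and 4 (Ndufs1, Sdha, Cox6a1 and Ndufaf7) higher, beside 21.9% lower and 48.7% higher of all genes.

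Droplets without a called cell hold RNA that was free in the suspension, and 72027 of them with 150 to 300 UMIs were summed. Their nuclear OXPHOS genes summed to 25150 CPM (25071 to 25229), above the 22025 CPM of kept cells, and their mitochondrial genes to 9415 CPM (9367 to 9464). The ratio was 0.374 mitochondrial UMIs per nuclear UMI, so mitochondrial genes were 3.50-fold higher in cells and nuclear genes stood at 0.876 of the cell-free level. All 13 mitochondrial genes were higher in cells, where 3.42% of all genes tested were, and the ratios ran from 2.15 for mt-Atp8 and 2.17 for mt-Nd6 to 4.07 for mt-Co1 and 4.25 for mt-Nd1. No nuclear gene was higher, and Atp5k, a small membrane subunit of ATP synthase, was the only one lower, at 275 against 427 CPM, where 1.86% of all genes were lower. On a total without mt- genes the nuclear counts were again 0 higher and 1 lower, against 3.98% and 1.56% of all genes. The cell-free levels of nuclear OXPHOS genes were thus close to those of cells, and those of mitochondrial genes were lower. The mixture of mitochondrial genes differed less than their level. Of mitochondrial OXPHOS UMIs, mt-Co3 made up 22.9% in cells and 25.2% in droplets, and mt-Nd1 10.5% and 8.6%.

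**Figure D5:**
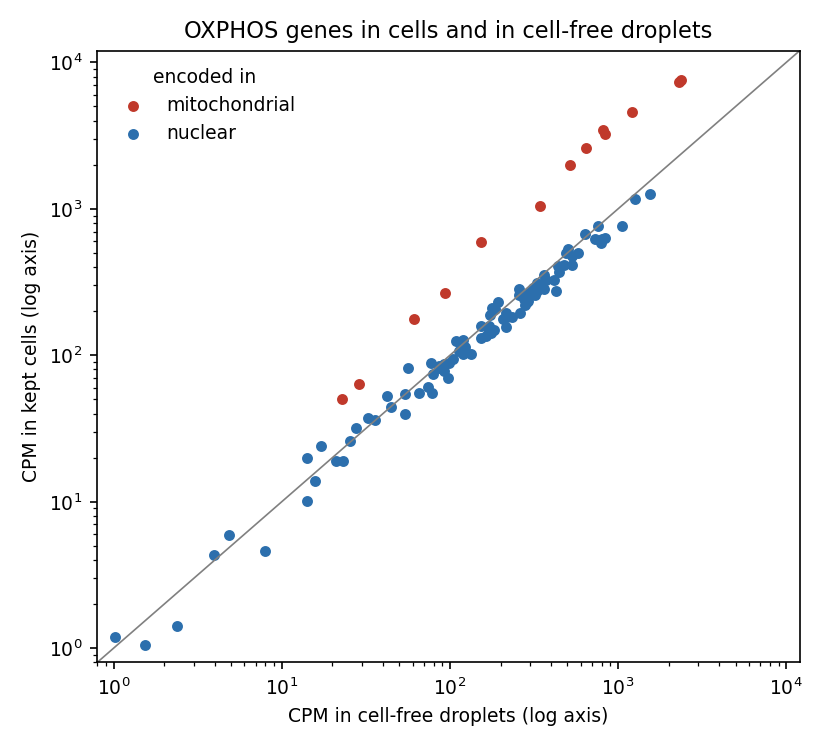
Level of each OXPHOS gene with at least 1 CPM in kept cells (vertical) against cell-free droplets (horizontal), both in CPM on log axes; the line marks equal levels. Nuclear genes (blue) lie along the line, and the 13 mitochondrial genes (red) lie above it, from 2.15-fold to 4.25-fold.

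Genes of the wider pathway were followed in lists outside the symbol rule, with the same rule for calls. The shares of all genes called were 24.9% higher and 28.1% lower in cluster 8 and 47.7% and 25.5% in cluster 9, and they stand above for the other clusters. Of 12 electron carriers and further subunits, such as cytochrome c, 0 were called in clusters 1, 2, 3 and 6 and 1 lower in each of clusters 4, 5 and 7. The same list had 1 higher and 3 lower in cluster 8, 1 higher and 8 lower in cluster 9, 1 higher in cluster 10, and 2 higher and 2 lower in cluster 11. Of 21 assembly factors of complex IV, none was called in clusters 1 to 7. Their counts were 4 higher and 3 lower in cluster 8, 2 and 9 in cluster 9, 1 and 2 in cluster 10, and 0 and 2 in cluster 11.

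Of 18 genes of mitochondrial transcription and RNA processing, none was called in clusters 1 to 7, 1 was lower in cluster 10 and 2 in cluster 11. In cluster 8, 6 of the 12 tested were lower and none higher, among them Tfam, which packages and transcribes mitochondrial DNA. In cluster 9, 7 of the 14 tested were higher and 3 lower, which lies near the shares over all genes there. Of 12 nuclear regulators of OXPHOS, 5 of the 8 tested were higher in cluster 9 and none lower, where 47.7% of all genes were higher. In cluster 8 the regulators had 1 higher (Myc) and 4 lower (Esrrb, Nrf1, Pprc1 and Sp1) of 8 tested, and in each remaining cluster at most 1 in each direction. In those remaining clusters Esrrb was the only regulator called, apart from Myc in cluster 7, and it was also 1 of the 5 higher in cluster 9. Esrrb is a naive pluripotency marker and among the leading genes of cluster 1, so its calls are no separate result. The tricarboxylic acid cycle list of 20 genes had 1 higher in cluster 1, 1 lower in cluster 4, 2 lower in cluster 5 and 3 lower in cluster 7. It had 2 higher and 4 lower in cluster 8, 4 and 6 in cluster 9, 3 and 0 in cluster 10, and 1 and 1 in cluster 11.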

How the data were processed

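The deposited values are raw UMI counts for each gene and barcode. Per the file headers, Cell Ranger 8.0.1 made them. The authors also deposited a tag table with assignment probabilities as a fraction between 0 and 1, per the file headers. The submitters' processing notes list Seurat, and no value from it was used. The authors' genome build is not given in the sources used here. RefSeq and GENCODE positions therefore belong to the builds named beside them. Although the labels speak of a channel per sample, the counts lie in 1 matrix, and of 21593 called cells 21465 are listed as unassigned to a tag. Tag names match no sample, so the planned comparison of the samples was not made and no p-value was computed.

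Clusters were found with scanpy 1.11.5 (Leiden, resolution 0.5, 2000 variable genes, 30 components, 15 neighbours), with OXPHOS, mt- and cell cycle genes left out of the variable genes. Folds add 1 CPM to both sides. Doublets were called with Scrublet at an expected rate of 0.1. Free RNA was not removed. Thinning to 2000 UMIs removed 294 cells below that depth, of which cluster 9 held 112. The call rule was tried on simulated counts at the size of a larger cluster, with counting error only. Variation between cells or samples, doublets and the smaller clusters were not simulated.

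The members, the 13 gene lists and the 12 marker lists were chosen with earlier results of these data known. Named genes are the mitochondrial ones, per complex the highest and lowest pair of at least 20 CPM, the 10 nuclear genes with the largest ratio between clusters, and the isoform families; genes called in a cluster, the core subunits, other genes named beside cluster 9 or the bins, and the X-linked genes were chosen after their values were seen. Ndufa4 and Ndufa4l2 were counted with complex IV. Alternatives changed the cell filter, doublets, weighting, total, free RNA, resolution, fold, minimum level and motif letters. The values of 1 gene are not reported here.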

Additional observations from a re-analysis of the deposited data

How the results depend on the processing

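No paired analysis was possible because each group has 1 sample and the cells are not tied to the samples. Most levels moved by more than their narrow counting intervals, and no direction turned. Without doublets the order of the clusters with the highest mitochondrial sums changed. With a minimum of 500 genes and a maximum of 20% mitochondrial UMIs, the mitochondrial sum was 36837 and the nuclear sum 21638 CPM, a ratio of 1.70 (complex I 1.53, III 1.78, IV 2.28, V 1.36). With 2000 genes and 5%, these were 30227 and 22164 CPM and 1.36 (1.26, 1.44, 1.83, 1.06). Without called doublets they were 32681 and 22126 CPM and 1.48 (1.35, 1.55, 1.97, 1.16), and as means of the shares of single cells 34783 and 22107 CPM and 1.57 (1.40, 1.66, 2.10, 1.26). With free RNA subtracted they were 33678 and 21928 CPM and 1.54 (1.40, 1.62, 2.05, 1.21). With mt- and ribosomal protein genes left out of the total, the sums were 42698 and 28544 CPM, with the same ratios. Complex IV had the highest ratio and complex V the lowest under each of these alternatives.

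Of the clusters, the highest and lowest nuclear sums were 22569 and 7547 CPM at resolution 0.3 (highest ratio 10.1), 27724 and 9206 CPM at resolution 1.0 (ratios 8.05 to 1.03) and 32445 and 9777 CPM on the smaller total. Without doublets the highest nuclear sum was 24621 CPM and the lowest ratio 1.11. Under the stricter filter, which left 9 cells of cluster 9 and so gave no value for it, the sums ran from 24165 to 20323 CPM and the ratios from 1.54 to 1.06. Nuclear genes lower in cluster 9 numbered 68 to 81 under the alternatives that gave a value. In all other clusters together, 11 nuclear genes were called, 21 without doublets and 2 at a fold of 2. Shares over all genes were not computed under these alternatives. Whether these counts changed more than those of all genes was therefore not tested. The ratio of the mitochondrial bins was 0.705 thinned and 0.906, 0.812 and 0.909 within clusters 1, 2 and 3. With the shorter core, 37.8% of the 82 nuclear OXPHOS genes held the ETS letters, against 16.7% of all genes with a promoter. In cell-free droplets of 50 to under 150 UMIs, an alternative chosen after seeing the data, mitochondrial and nuclear sums were 11036 and 24017 CPM. The causes of these shifts were not tested. Depth limits the low isoforms, and the design with 1 pooled sample leaves every difference between clusters without a replicate.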

Other observations

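The 3 nuclear OXPHOS genes that the annotation (GENCODE M21) places on the X chromosome, Cox7b, Ndufa1 and Ndufb11, were looked at together after the values of the first 2 had been seen. Their log2 ratios to the other kept cells were −0.67, −0.48 and −0.19 in cluster 5, −0.60, −0.58 and −0.29 in the streak and mesoderm-like cells and −0.98, −0.65 and −0.23 in the fibroblast or feeder-like cells. In the naive pluripotency-like cells they were 0.39, 0.22 and 0.18. Over all X-linked genes tested, the median log2 ratio was −0.40 in cluster 5 (303 genes), −0.47 in cluster 7 (304) and −0.64 in cluster 8 (308), while over autosomal genes it was 0.05, 0.09 and −0.11. X-linked genes were called lower for 31.7%, 38.8% and 52.9% in these clusters, against 7.61%, 9.37% and 27.0% of autosomal genes. In the other clusters of at least 100 cells apart from cluster 9, the X-linked median lay between −0.13 and 0.14. Xist, the RNA of the silenced X chromosome, stood at 355 CPM in cluster 5, 436 in cluster 7 and 290 in cluster 8. It also stood at 300.5 CPM in cluster 4, where the X-linked median was 0.14, at 617 CPM in cluster 9, and at 52.0 CPM in the naive pluripotency-like cells.

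Glycolysis genes summed to 7930 CPM in cluster 3 against 6164 CPM in the other cells, in the cluster with the highest nuclear OXPHOS sum. Of 18 genes, 3 were higher there (Aldoa, Ldha and Slc16a3) and 3 lower (Ldhb, Pfkp and Slc2a3), while of all genes tested 0.543% were higher and 12.2% lower. Ldha is among the leading genes of that cluster, so its level there is no separate result. In the fibroblast or feeder-like cells glycolysis genes summed to 4743 CPM, with 1 higher and 7 lower of 17 tested, against 24.9% and 28.1% of all genes. In the naive pluripotency-like cells the counts were 3 higher and 2 lower of 16 tested, against 5.46% and 11.8% of all genes. In cluster 10 they were 3 and 5 of 17 tested, against 9.28% and 13.9%.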
